A study of Mus musculus with 13 samples.

Results

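The 10 genes described here encode chemokines and cytokines that fibroblasts release: the cytokines Il6, Lif and Csf1, the CC chemokines Ccl2, Ccl5 and Ccl7, and the CXC chemokines Cxcl1, Cxcl5, Cxcl10 and Cxcl12. They were chosen by name and are 10 of the 25965 gene intervals in a table of poly(A) RNA levels from mouse embryonic fibroblasts (MEFs). The table holds 12 hairpin libraries in 4 groups of 3, with a control or a Setdb1 hairpin, each untreated or treated with 5-azacytidine (5-aza). Setdb1 is a methyltransferase for lysine 9 of histone H3, and 5-aza blocks the upkeep of DNA methylation. The comparisons asked how expression changes when Setdb1 is depleted, when DNA methylation is reduced, and when both are done together.

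By the labels, the cells were primary MEFs from E13.5 embryos that carried a mutant Xist allele (XistΔA) on 1 X chromosome and a PGK strain X as the other. They were transduced with a hairpin retrovirus and selected with puromycin, the treated groups received 5-aza for 24 h from day 3, and all were harvested on day 7. Replicate 1 of each group carried another hairpin than replicates A and B: luciferase rather than non-silencing among controls, and shSetdb1.6 rather than shSetdb1.4 among Setdb1 groups. Setdb1 hairpins went into cells heterozygous for a gene trap in Setdb1 and the non-silencing hairpin into wild-type cells, and the genotype behind the luciferase hairpin was not stated, so hairpin and genotype cannot be told apart. One further library, with 5-aza and no named hairpin (n = 1), was kept as a group of its own and entered no test. Its submitted name holds PGK, and its protocol text is that of the other libraries. The authors' paper found strain variants in a PGK sample, keeping those whose reference allele was absent there. Whether this library is that sample is not stated. Nor is it stated whether its cells carried the XistΔA allele or a retrovirus, so its levels are given as values only. Levels are in RPM, in which read numbers are divided by library depth. Reads in genes numbered 36.4 to 51.3 M per hairpin library, so that 1 read was worth 0.0170 to 0.0239 RPM, and the library with no named hairpin had 17.4 M, with 1 read worth 0.0491 RPM.

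The targeted gene, Setdb1, had a mean level of 46.3 ± 0.103 RPM (SD, n = 3) in untreated controls, against 14.1 ± 1.72 RPM in their Setdb1 hairpin counterparts, and the treated means were 43.4 ± 0.631 and 12.9 ± 2.16 RPM. The difference was -1.73 (SE 0.11, adjusted p 1.52e-06) untreated and -1.76 (SE 0.11, adjusted p 1.25e-06) treated on the log2 scale. The fibroblast label was met by all 13 fibroblast markers, which passed the filter on low values and summed to 25005 to 40190 RPM in the hairpin libraries. The 16 macrophage markers summed to 11.05 to 16.87 RPM in the hairpin libraries but to 194.7 RPM in the library with no named hairpin, where Lyz2, C1qa and Cd68 were at 55.9, 19.1 and 16.7 RPM. In the hairpin libraries, 3 of the 16 (Cd68, Csf1r and Itgam) passed the filter, and Csf1r made up most of the sum in the group means. In these libraries the macrophage sum was 11.05 to 11.97 RPM without 5-aza and 14.7 to 16.9 RPM with it, and C1qa had at most 5 reads in any of them. The part of this shift in the members' responses to 5-aza was not tested.

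Chemokines are small secreted proteins that steer leukocytes through receptors of the G protein-coupled class, and their names follow the spacing of conserved cysteines (CC or CXC). Il6 and Lif are cytokines of the family that signals through the shared receptor chain gp130 (encoded by Il6st) to JAK kinases and STAT factors, and Csf1 is the growth factor that keeps macrophages alive. Fibroblasts make many of these signals at rest and raise several of them when NF-kB, AP-1 or interferon pathways are active.

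Per kilobase of exon, the 10 genes spanned a wide range of levels. Csf1 was the highest, with a median over the 12 hairpin libraries of 202 RPM per kb. Ccl7 (62.3 RPM per kb), Cxcl12 (29.6) and Ccl2 (29.2) followed. Lif (2.97), Il6 (1.52), Cxcl5 (1.42) and Cxcl1 (1.35) formed a lower tier, and Cxcl10 (0.162) and Ccl5 (0.144) were barely detected. Several neighbours in this order did not differ beyond their spread: Cxcl10 and Ccl5 overlapped in 3 of the 4 groups, Il6, Cxcl5 and Cxcl1 overlapped in part in the 3 groups other than the plain control, and Cxcl12 stood above Ccl2 without 5-aza but below it with 5-aza. Because bulk RNA was measured, fewer cells making a transcript and less of it per cell cannot be told apart.

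**Figure D1:**
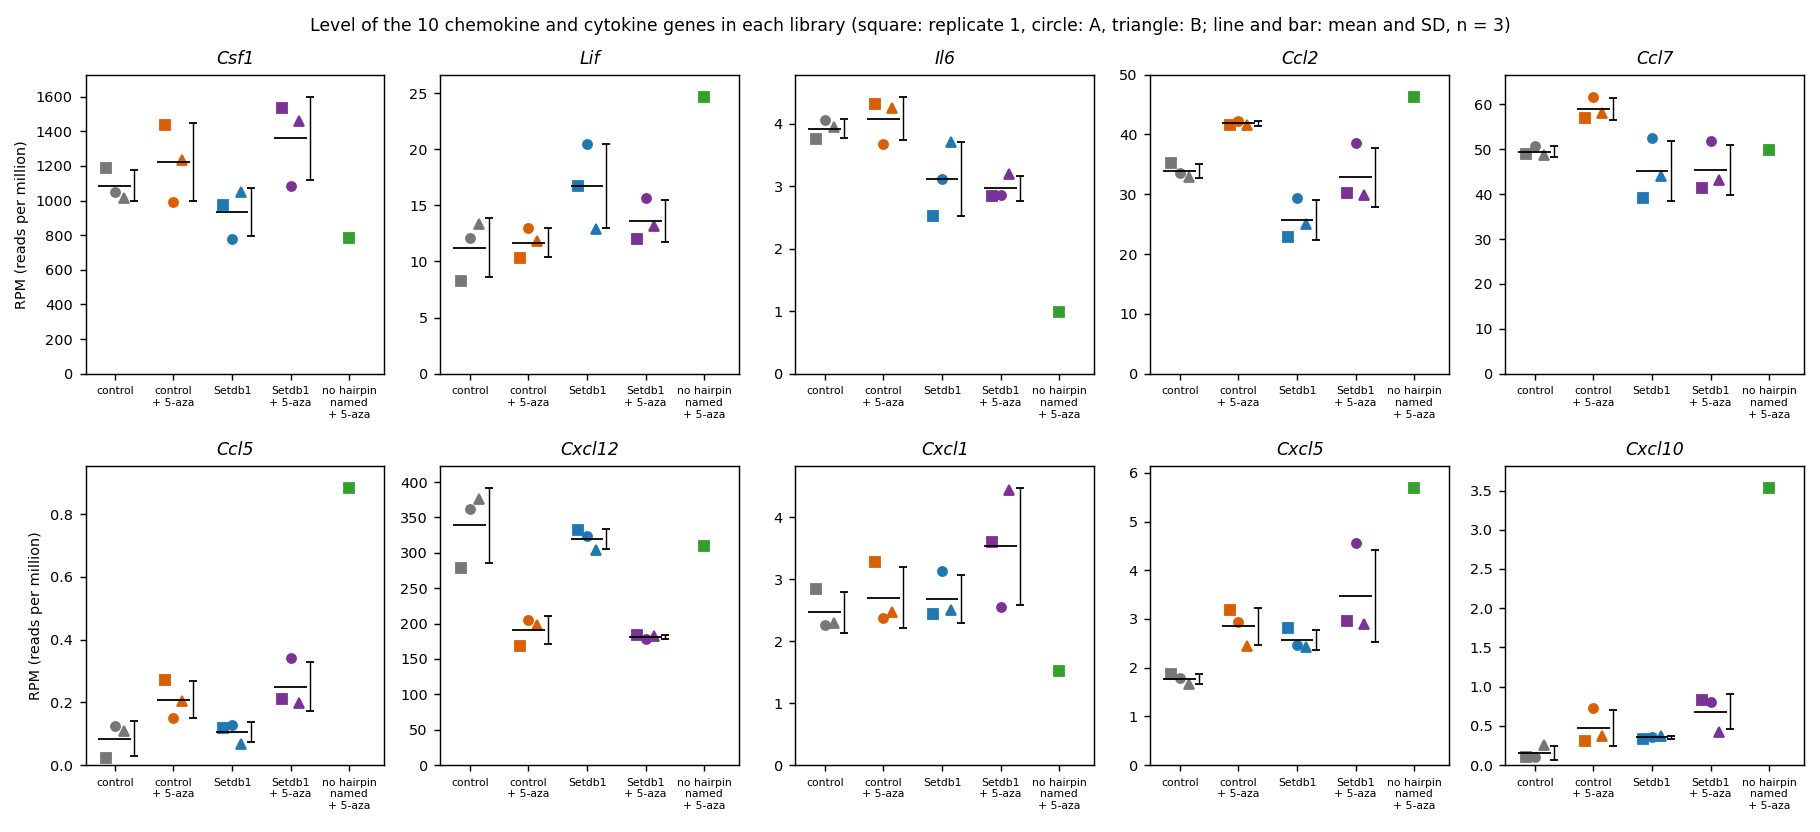
Level in RPM (vertical axes, each from 0) of the 10 genes in every library, by group (horizontal axes), with the mean and SD of the 3 libraries beside each group of points and a single point for the library with no named hairpin. Cxcl12 sits at 168.2 to 205.4 RPM in the 6 libraries with 5-aza and a hairpin and at 278.6 to 376.0 RPM in the 6 without 5-aza.

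A gene was tested when it reached 1 RPM in at least 3 hairpin libraries, which 13134 genes and 8 of the 10 members did. Ccl5 and Cxcl10 did not. A change was called at an adjusted p under 0.05 (limma, Benjamini-Hochberg over all genes tested). With Setdb1 hairpins and no 5-aza, 1 of 8 members was called (Ccl2, lower), against 12.4% of all genes tested in either direction and 3.4% lower. With 5-aza in both arms, 3 of 8 were called, all lower with the Setdb1 hairpin (Il6, Ccl2 and Ccl7), against a background of 19.9% in either direction and 5.37% lower. Upon 5-aza, 2 of 8 were called in control hairpin cells (Cxcl5 higher, Cxcl12 lower), where 18.8% of all genes were called, and 3 of 8 in Setdb1 hairpin cells (Csf1 and Ccl2 higher, Cxcl12 lower), where 28.9% were called. By ranges, 3 of 8 members did not overlap between hairpins without 5-aza (34.4% of all genes tested), 3 with it (34.7%), and 4 upon 5-aza in either arm (37.6% and 43.4%). The balance of calls over all genes depended on the scaling: without 5-aza, 1183 genes were called higher and 447 lower with the Setdb1 hairpin, and 791 and 857 with libraries centred on their medians. The median log2 fold change of the 8 members was -0.11, 0.04, 0.14 and 0.18 in these 4 comparisons, beside 0.03, 0.05, 0.04 and 0.06 over all genes tested. For the interaction, the test of whether the response to 5-aza differs between the hairpins, limma called 0 of 8 members, 0 also had an unadjusted p under 0.05, and voom on reads recovered from the values called 0 (0.388% of all genes were called).

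**Figure D2:**
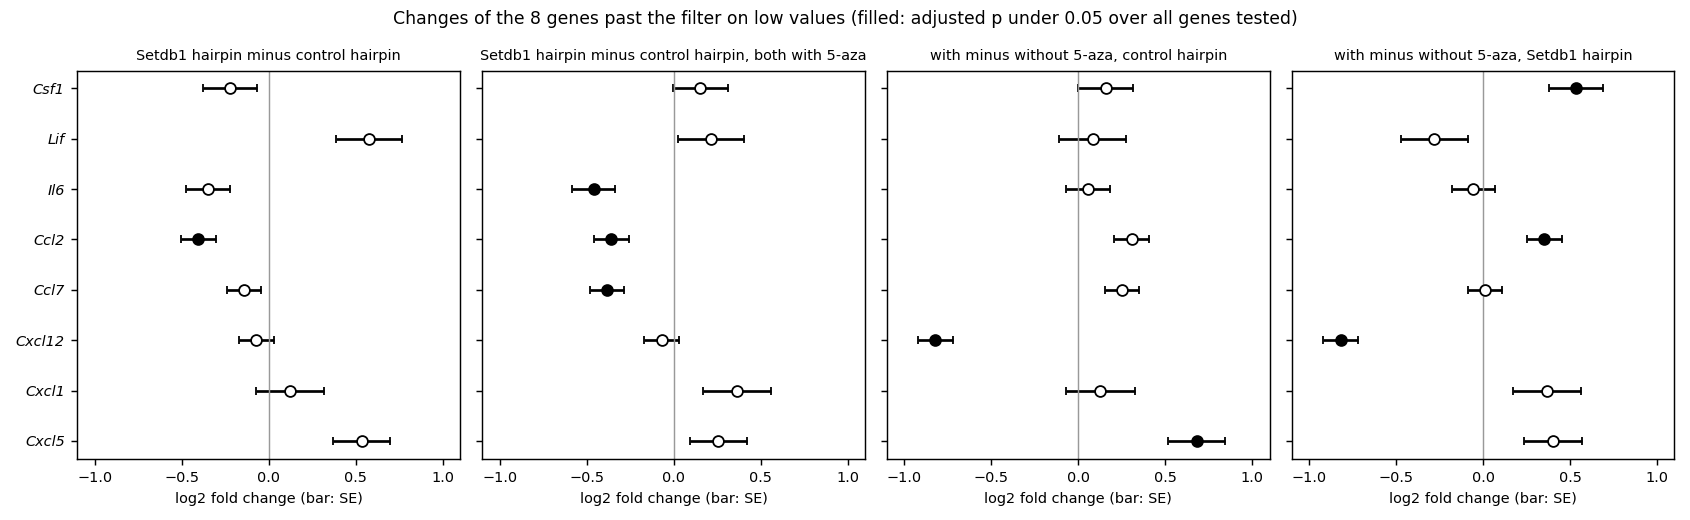
Log2 fold change with its standard error (horizontal axes) of the 8 members tested (vertical axis) in 4 comparisons, filled where the adjusted p was under 0.05. Cxcl12 lies at -0.82 in both comparisons of 5-aza with none, and the largest called rise is 0.68 for Cxcl5.

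Cxcl12 (ENSMUSG00000061353, GRCm38 chromosome 6, 117168535 to 117181367), which retains stem cells and leukocytes through the receptor Cxcr4, fell upon 5-aza with either hairpin. DNA methylation was not measured in these libraries, and the part of CG content in the responses to 5-aza was not tested. Of the 6 members with a window, Cxcl12 and Csf1 were the richest in CG. The 300 bases around their starts are shown with every CG in capitals (RefSeq, GRCm38.p6, 250 bases before the start and 50 after):
Cxcl12 (chr6:117168285-117168584, plus strand): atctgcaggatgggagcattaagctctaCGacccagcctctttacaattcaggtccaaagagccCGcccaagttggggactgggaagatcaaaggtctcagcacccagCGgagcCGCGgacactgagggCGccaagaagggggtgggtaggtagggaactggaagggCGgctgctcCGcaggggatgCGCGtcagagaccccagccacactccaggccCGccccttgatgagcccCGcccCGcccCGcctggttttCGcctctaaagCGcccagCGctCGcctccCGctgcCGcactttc
Csf1 (chr3:107760420-107760719, minus strand): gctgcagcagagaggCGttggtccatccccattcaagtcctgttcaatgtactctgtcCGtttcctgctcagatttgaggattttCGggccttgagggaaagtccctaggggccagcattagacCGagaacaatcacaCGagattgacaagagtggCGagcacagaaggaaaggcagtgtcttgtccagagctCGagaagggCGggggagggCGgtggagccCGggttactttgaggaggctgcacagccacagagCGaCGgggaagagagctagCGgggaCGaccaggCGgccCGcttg
The Cxcl12 window held 20 CG and that of Csf1 16, against 10 for Cxcl1 and Cxcl10, 7 for Lif and 3 for Il6. Over all 32851 windows the median was 7 CG, with quartiles of 3 and 20.

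**Figure D3:**
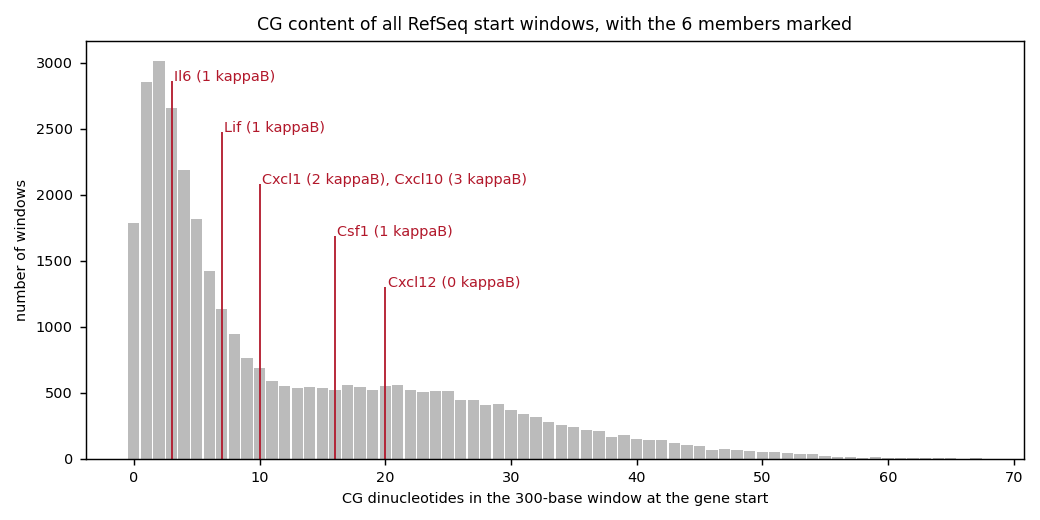
Number of RefSeq start windows (vertical axis) by the CG dinucleotides each holds (horizontal axis), with the 6 members that have a window marked by a line and by the number of kappaB motifs in it. The members run from 3 CG in Il6 to 20 in Cxcl12, which are the quartiles of all windows.

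Cxcl12 was at 278.6, 362.3 and 376.0 RPM in the control hairpin libraries (replicates 1, A and B) and at 168.2, 205.4 and 198.7 RPM with 5-aza. With the Setdb1 hairpin it was at 331.7, 323.7 and 304.1 RPM, and with 5-aza as well at 183.7, 177.7 and 182.5 RPM. All 6 treated libraries were below all 6 untreated ones. Cxcl12 changed by a log2 fold change of -0.82 (SE 0.10, adjusted p 0.000296) in control cells and -0.82 (SE 0.10, adjusted p 0.000391) in Setdb1 hairpin cells, which left 56.5% and 56.7% of the untreated level. Both calls held under every alternative setting, with log2 fold changes of -0.96 to -0.73 and -0.88 to -0.79. The hairpin made no called difference to Cxcl12 without 5-aza (-0.07, SE 0.10, adjusted p 0.692) or with it (-0.07, SE 0.10, adjusted p 0.665), although with replicates A and B alone, 1 hairpin per group, the log2 fold change without 5-aza was -0.23 (adjusted p 0.0456). The interaction was 0.0045 (SE 0.14, adjusted p 0.994). The library with no named hairpin, though treated, was at 309.2 RPM.

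Csf1 (ENSMUSG00000014599, chromosome 3, 107741048 to 107760469) was the most abundant of the 10 transcripts. It stood at 1188, 1052 and 1017 RPM with control hairpins and at 1437, 990.5 and 1237 RPM with control hairpins and 5-aza, which overlapped. With the Setdb1 hairpin it was at 974.4, 780.5 and 1047 RPM without 5-aza and at 1532, 1084 and 1461 RPM with it, and these groups did not overlap. The rise upon 5-aza in Setdb1 hairpin cells was 0.54 on the log2 scale (SE 0.16, adjusted p 0.0250), or 1.45-fold. In control cells it was 0.16 (SE 0.16, adjusted p 0.511), and the difference between these responses was 0.38 (SE 0.22, adjusted p 0.794), so that a difference between hairpins was not shown. Csf1 was lowest in replicate A of each of these groups but the plain control. The call did not hold without Setdb1 hairpin replicate A (0.41, adjusted p 0.101), Setdb1 hairpin with 5-aza replicate 1 (0.44, adjusted p 0.0905) or replicate B (0.48, adjusted p 0.0905), nor with replicates A and B alone (0.48, adjusted p 0.0994). Its receptor Csf1r, which is also one of the 16 macrophage markers, rose upon 5-aza in both arms, from 7.53 to 9.07 RPM (0.27, SE 0.07, adjusted p 0.0220) and from 7.67 to 9.34 RPM (0.29, SE 0.07, adjusted p 0.0121) in the group means. The call in control cells was lost in 4 of 12 fits that each left out 1 library (adjusted p up to 0.0940), with only the 2 groups in the fit (adjusted p 0.0609) and with replicates A and B alone (adjusted p 0.0723).

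Among the gp130 cytokines, Il6 (ENSMUSG00000025746, chromosome 5, 30013161 to 30019968), a mediator of inflammation and the acute phase, was called lower with Setdb1 hairpins in the presence of 5-aza. It was at 3.76, 4.07 and 3.95 RPM with control hairpins and 2.53, 3.11 and 3.71 RPM with Setdb1 hairpins. In treated cells it was at 4.31, 3.68 and 4.26 RPM against 2.84, 2.86 and 3.21 RPM. The Setdb1 hairpin libraries were below the controls in both settings with no overlap. With 5-aza it differed by -0.46 on the log2 scale (SE 0.12, adjusted p 0.0237), or 72.7% of the control level. Without 5-aza it was -0.35 (SE 0.12, adjusted p 0.0908), which was not called, but was without Setdb1 hairpin replicate B (-0.48, adjusted p 0.0231). The call with 5-aza was lost without control hairpin with 5-aza replicate 1 (-0.42, adjusted p 0.0540) or replicate B (-0.43, adjusted p 0.0838), without Setdb1 hairpin with 5-aza replicate 1 (-0.43, adjusted p 0.0898), and with replicates A and B alone (-0.39, adjusted p 0.0866). No difference upon 5-aza was called for Il6 in either arm (0.05 and -0.05, SE 0.12, adjusted p 0.795 and 0.764). In the library with no named hairpin, Il6 was at 0.981 RPM (20 reads), below every hairpin library.

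Lif (ENSMUSG00000034394, chromosome 11, 4257557 to 4272514), known for holding embryonic stem cells undifferentiated, was called in no comparison. Its levels were 8.25, 12.1 and 13.3 RPM with control hairpins, 10.3, 12.9 and 11.8 RPM with control hairpins and 5-aza, 16.7, 20.4 and 12.9 RPM with Setdb1 hairpins, and 11.97, 15.7 and 13.2 RPM with both. Each pair of groups overlapped. The largest difference, between the hairpins without 5-aza, was 0.58 on the log2 scale (SE 0.19, adjusted p 0.0700), and without Setdb1 hairpin replicate B it was 0.75 (adjusted p 0.0311). The library with no named hairpin was above all of these, at 24.7 RPM.

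The start windows of Il6, Cxcl1 and Cxcl10 are shown because these genes are known targets of NF-kB. Capitals mark the kappaB motif on either strand, and overlapping matches run together (RefSeq, GRCm38.p6, the same 300 bases):
Il6 (chr5:30012864-30013163, plus strand): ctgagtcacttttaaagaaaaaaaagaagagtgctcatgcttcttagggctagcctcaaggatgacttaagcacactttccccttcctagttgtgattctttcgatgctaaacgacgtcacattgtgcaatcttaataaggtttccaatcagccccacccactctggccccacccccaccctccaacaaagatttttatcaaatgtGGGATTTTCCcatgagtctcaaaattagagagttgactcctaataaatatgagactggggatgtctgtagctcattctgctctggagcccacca
Cxcl1 (chr5:90890995-90891294, plus strand): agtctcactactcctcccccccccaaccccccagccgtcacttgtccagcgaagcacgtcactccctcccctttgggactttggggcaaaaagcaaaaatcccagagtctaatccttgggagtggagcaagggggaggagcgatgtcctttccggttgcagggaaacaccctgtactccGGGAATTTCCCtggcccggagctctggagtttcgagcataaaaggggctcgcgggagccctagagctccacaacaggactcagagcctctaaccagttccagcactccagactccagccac
Cxcl10 (chr5:92348840-92349139, minus strand): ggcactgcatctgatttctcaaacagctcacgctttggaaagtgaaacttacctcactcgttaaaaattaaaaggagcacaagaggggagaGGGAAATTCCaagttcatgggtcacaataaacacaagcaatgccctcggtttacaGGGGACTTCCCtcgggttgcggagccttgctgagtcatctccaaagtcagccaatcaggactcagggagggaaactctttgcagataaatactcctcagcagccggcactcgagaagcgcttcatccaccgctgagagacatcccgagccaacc
The motif was found in 5 of the 6 member windows (3 matches in Cxcl10, of which 2 overlap, 2 overlapping ones in Cxcl1, and 1 each in Il6, Csf1 and Lif), and in 8.46% of all windows. The AP-1 motif TGANTCA was found in Il6, Lif and Cxcl10, against 7.81% of all windows. The interferon motif ISRE (GAAA, any 2 bases, GAAA) was found in Cxcl10 alone of the 6, against 3.44% of all windows. Both strands were searched, and a match is a description of letters in this window.

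Of the monocyte attractants, Ccl2 (ENSMUSG00000035385, chromosome 11, 82035571 to 82037453, the ligand of Ccr2) was the member called most often. It was at 35.2, 33.5 and 32.8 RPM with control hairpins and 22.8, 29.3 and 24.98 RPM with Setdb1 hairpins. In treated cells it was at 41.6, 42.2 and 41.6 RPM with control hairpins and 30.1, 38.5 and 29.9 RPM with Setdb1 hairpins. Ccl2 was thus below the controls in all Setdb1 hairpin libraries at matched treatment, and above the untreated libraries in all treated ones of the same hairpin. Untreated, the difference between hairpins was -0.41 (SE 0.10, adjusted p 0.0214), and treated it was -0.36 (SE 0.10, adjusted p 0.0261), leaving 0.755 and 0.780 of the control level. The rise upon 5-aza was 0.31 (SE 0.10, adjusted p 0.0513, not called) in control cells and 0.35 (SE 0.10, adjusted p 0.0214) under the Setdb1 hairpin, and the interaction was 0.05 (SE 0.14, adjusted p 0.935).

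These calls of Ccl2 lay near the threshold. Without 5-aza, the hairpin call was lost without control hairpin replicate 1 (-0.38, adjusted p 0.0820) or A (-0.41, adjusted p 0.0593), without Setdb1 hairpin replicate 1 (-0.32, adjusted p 0.102) or B (-0.39, adjusted p 0.0561), and with replicates A and B alone (-0.29, adjusted p 0.256). With 5-aza, it was lost without control hairpin with 5-aza replicate A (-0.35, adjusted p 0.0716) or B (-0.36, adjusted p 0.0712), without Setdb1 hairpin with 5-aza replicate 1 (-0.30, adjusted p 0.115) or B (-0.30, adjusted p 0.110), with only the 2 groups in the fit (adjusted p 0.0524) and with replicates A and B alone (-0.30, adjusted p 0.129). The rise upon 5-aza in Setdb1 hairpin cells was lost with the libraries centred on their medians (0.30, adjusted p 0.0528) or quantile normalized (0.31, adjusted p 0.0538), with only the 2 groups in the fit (adjusted p 0.0686), with replicates A and B alone (0.33, adjusted p 0.0887), and without Setdb1 hairpin replicate 1 (0.27, adjusted p 0.0788) or B (0.34, adjusted p 0.0571) or Setdb1 hairpin with 5-aza replicate A (0.23, adjusted p 0.0550). The direction of all 3 differences was the same under these settings. The rise in control cells became a call with only the 2 groups in the fit (adjusted p 0.00480), with voom (adjusted p 0.0429), and without Setdb1 hairpin replicate 1 (adjusted p 0.0416), replicate A (adjusted p 0.0298) or Setdb1 hairpin with 5-aza replicate A (adjusted p 0.0146).

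Ccl7 (ENSMUSG00000035373, chromosome 11, 82045712 to 82047525), a related attractant of monocytes, starts 8.26 kb beyond the end of Ccl2 on the same strand. It was at 49.0, 50.8 and 48.6 RPM with control hairpins and 57.0, 61.7 and 58.1 RPM with 5-aza, and at 39.0, 52.4 and 44.0 RPM with Setdb1 hairpins and 41.4, 51.8 and 43.1 RPM with both. The control groups did not overlap, and with 5-aza every Setdb1 hairpin library was below every control. That hairpin difference was -0.38 (SE 0.10, adjusted p 0.0193), against -0.14 (SE 0.10, adjusted p 0.392) without 5-aza. The rise upon 5-aza was 0.25 (SE 0.10, adjusted p 0.0942) in control cells and 0.01 (SE 0.10, adjusted p 0.939) under the Setdb1 hairpin. With an interaction of -0.24 (SE 0.14, adjusted p 0.794), they were not shown to differ. The call was lost without control hairpin with 5-aza replicate A (-0.35, adjusted p 0.0678) or B (-0.39, adjusted p 0.0537), without Setdb1 hairpin with 5-aza replicate 1 (-0.32, adjusted p 0.0907) or B (-0.35, adjusted p 0.0765), and with replicates A and B alone (-0.34, adjusted p 0.0727). With only the 2 groups in the fit, or without Setdb1 hairpin replicate A, the rise in control cells was called (adjusted p 0.0119 and 0.0439).

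Ccl2 and Ccl7 had the most alike profiles among the members. Their standardised log2 levels over the 12 libraries differed by a root mean square of 0.477, which placed Ccl7 at rank 169 of 13133 genes by likeness to Ccl2, and Ccl2 at rank 102 by likeness to Ccl7. In both genes, replicate A was the highest of the Setdb1 hairpin libraries with and without 5-aza. Of the other genes of the same cluster, none of which passed the filter, Ccl11, 10.3 kb from Ccl7, had 4 to 86 reads in the hairpin libraries, Ccl12 had 0 in all of them and Ccl8 at most 5.

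Ccl5 (ENSMUSG00000035042, chromosome 11, 83525778 to 83530518), an attractant of T cells, was near the detection limit. It had 1, 7 and 5 reads with control hairpins, 13, 7 and 11 with 5-aza, 5, 6 and 4 with Setdb1 hairpins, and 11, 17 and 10 with both. In RPM the treated libraries were above the untreated ones of the same hairpin, with means of 0.0843 ± 0.0552 and 0.208 ± 0.0595 RPM (SD, n = 3) in the controls and 0.104 ± 0.0318 and 0.250 ± 0.0782 RPM in the Setdb1 groups. It was not tested for its low level, and a fit without the filter gave log2 fold changes upon 5-aza of 1.62 (SE 0.59, adjusted p 0.125) in control cells and 1.27 (SE 0.59, adjusted p 0.211) in Setdb1 hairpin cells. The library with no named hairpin held 18 reads, or 0.883 RPM.

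Of the CXC chemokines that attract neutrophils through Cxcr2, Cxcl5 (ENSMUSG00000029371, chromosome 5, 90759299 to 90761625) rose upon 5-aza in control cells. It was at 1.87, 1.79 and 1.66 RPM with control hairpins and 3.19, 2.93 and 2.44 RPM with 5-aza. With Setdb1 hairpins it was at 2.81, 2.46 and 2.43 RPM, and with both at 2.95, 4.56 and 2.89 RPM. The plain control libraries were below all 9 others. The rise upon 5-aza was 0.68 (SE 0.16, adjusted p 0.0147), or 1.602-fold, in control cells and 0.40 (SE 0.16, adjusted p 0.0860) in Setdb1 hairpin cells, with an interaction of -0.28 (SE 0.23, adjusted p 0.796). With the culture as a replicate block, the rise in Setdb1 hairpin cells was called (0.40, SE 0.14, adjusted p 0.0434). Between hairpins, Cxcl5 differed by 0.53 (SE 0.16, adjusted p 0.0546) untreated and by 0.26 (SE 0.16, adjusted p 0.288) treated, and the first was called with only the 2 groups in the fit (adjusted p 0.0183) or without Setdb1 hairpin with 5-aza replicate A (adjusted p 0.0108). The rise in control cells was not called without control hairpin replicate B (0.63, adjusted p 0.0610), without control hairpin with 5-aza replicate 1 (0.59, adjusted p 0.0532), or with replicates A and B alone (0.63, adjusted p 0.0863). At 5.69 RPM, Cxcl5 in the library with no named hairpin exceeded every hairpin library.

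Cxcl1 (ENSMUSG00000029380, chromosome 5, 90891241 to 90893115), of the same receptor class, was called in no comparison. It was at 2.85, 2.26 and 2.29 RPM with control hairpins, 3.28, 2.37 and 2.48 RPM with 5-aza, 2.43, 3.14 and 2.50 RPM with Setdb1 hairpins, and 3.61, 2.56 and 4.44 RPM with both. The ranges overlapped in each comparison, and the largest differences were 0.37 upon 5-aza in Setdb1 hairpin cells (SE 0.20, adjusted p 0.175) and 0.36 between hairpins with 5-aza (SE 0.20, adjusted p 0.205). Without Setdb1 hairpin with 5-aza replicate A both were called (0.58, adjusted p 0.0301, and 0.58, adjusted p 0.0318). The neighbouring Cxcl2, 10.8 kb from Cxcl1, had at most 2 reads in any library.

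Cxcl10 (ENSMUSG00000034855, chromosome 5, 92346638 to 92348889) is an attractant of T cells through Cxcr3 and a classic interferon-induced gene. It had 5, 6 and 12 reads with control hairpins, 15, 34 and 20 with 5-aza, 14, 17 and 22 with Setdb1 hairpins, and 43, 40 and 21 with both. These were 0.157 ± 0.0882, 0.472 ± 0.227, 0.355 ± 0.0201 and 0.681 ± 0.228 RPM (SD, n = 3). The plain control libraries were below all others, and the untreated Setdb1 hairpin libraries were below the treated ones. Cxcl10 did not pass the filter on low values, and the fit without the filter gave 1.62 upon 5-aza in control cells (SE 0.44, adjusted p 0.0391), 0.88 in Setdb1 hairpin cells (SE 0.44, adjusted p 0.248), and 1.31 between hairpins without 5-aza (SE 0.44, adjusted p 0.120). The gene lies within the interval of Art3 on the other strand, which had 0 to 12 reads in the hairpin libraries, and without a statement that strand was counted, reads of these genes cannot be told apart. The nearby Cxcl9 and Cxcl11, also induced by interferon, had at most 8 reads and 1 read in any library. In the library with no named hairpin Cxcl10 was at 72 reads, or 3.53 RPM.

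**Figure D4:**
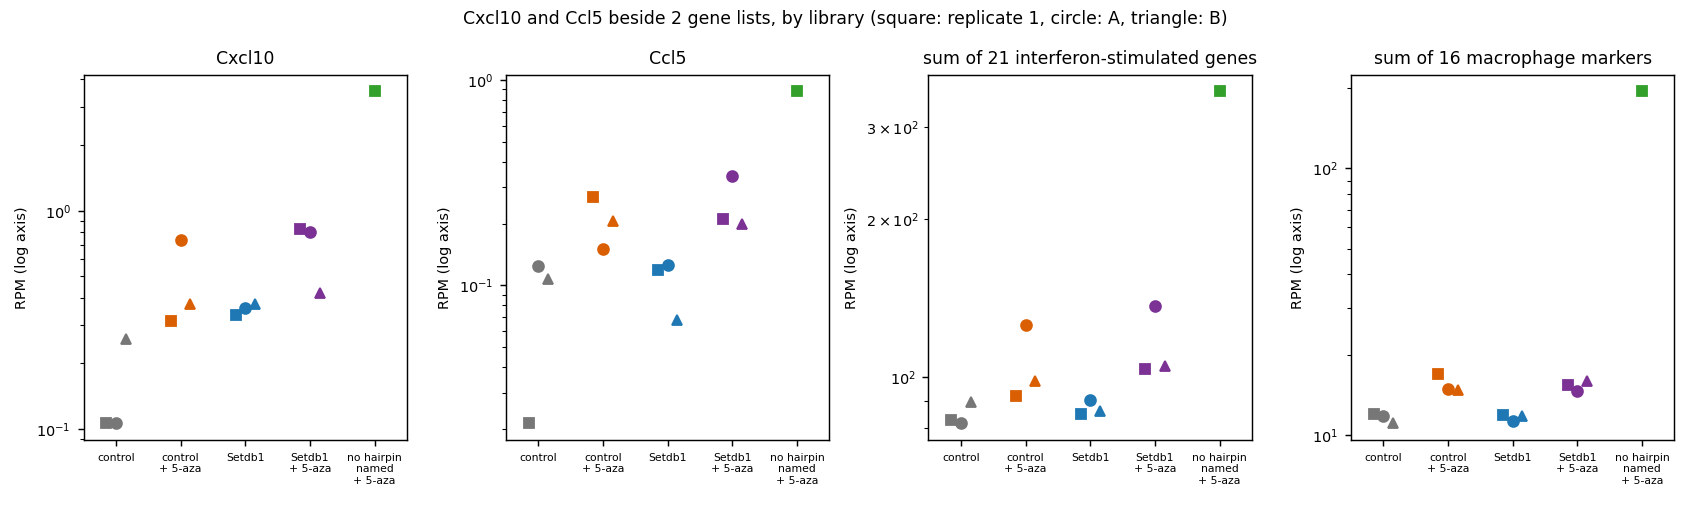
RPM on log axes of Cxcl10, Ccl5, the sum of 21 interferon-stimulated genes and the sum of 16 macrophage markers in each library, by group. The library with no named hairpin is above all hairpin libraries in each panel, with 3.53, 0.883, 351.4 and 194.7 RPM.

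Of 21 interferon-stimulated genes, a list without Cxcl10, 12 were tested, and in control cells 4 rose and 0 fell upon 5-aza (18.8% of all genes tested were called), led by Ifit1, an RNA-binding antiviral protein, at 0.926 ± 0.248 RPM without and 2.71 ± 1.49 RPM with it (SD, n = 3), a log2 fold change of 1.45 (SE 0.36, adjusted p 0.0164). Without control hairpin replicate A the call of Ifit1 was lost, and its adjusted p was then 0.0656. The 4 calls were 2 with median centring or quantile normalization and 1 without control hairpin replicate A. In Setdb1 hairpin cells, 9 rose and 0 fell (28.9% of all genes tested), led by Usp18, which restrains interferon signalling, with a log2 fold change of 2.26 (SE 0.40, adjusted p 0.00246). There Usp18 was at 0.304 ± 0.0904 RPM (10 to 23 reads) without 5-aza and 1.47 ± 0.528 RPM with it (SD, n = 3). The median log2 fold change of the 12 upon 5-aza was 0.44 in control and 1.18 in Setdb1 hairpin cells, against 0.04 and 0.06 over all genes tested. A gene can reach the 1 RPM of the filter through treated libraries alone, so these counts and medians are not independent of the filter. Between hairpins without 5-aza, limma called 0 of the 12 (12.4% of all genes tested), with 0 at an unadjusted p under 0.05. With 5-aza, 5 had an unadjusted p under 0.05, and the median log2 fold change was 0.31, against 0.05 over all genes tested. There limma called 1 (Bst2, higher, 0.41, SE 0.12, adjusted p 0.0280), where 19.9% of all genes tested were called. That count was 0 with median centring or quantile normalization and 6 without control hairpin with 5-aza replicate A, and Bst2 was lost in 4 of 12 fits that left out 1 library (adjusted p up to 0.110). The summed level of the 21 was 81.6 to 90.3 RPM in the 6 libraries without 5-aza and 92.0 to 136.8 RPM in the 6 with it.

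The receptors of these ligands were mostly not detected in the same cultures. Of 16 receptor genes, 6 passed the filter, and 9 had at most 3 reads in every hairpin library, with Ccr2 and Cxcr3, the receptors of Ccl2 and Cxcl10, at 0 in all 13. Cxcr4 had at most 15 reads. The shared chain Il6st was high, at 181.4 to 371.1 RPM, and Lifr and Il6ra were at 10.5 to 19.1 and 3.65 to 5.60 RPM. The Il6 receptor chain Il6ra rose upon 5-aza, by 0.43 (SE 0.08, adjusted p 0.00450) in control cells and 0.31 (SE 0.08, adjusted p 0.0167) in Setdb1 hairpin cells, where the second call was lost in 2 of 12 fits that each left out 1 library (adjusted p up to 0.0593). The scavenger receptor of Cxcl12, Cxcr7 (now Ackr3), was lower with the Setdb1 hairpin without 5-aza (-0.59, SE 0.16, adjusted p 0.0348), a call lost in 5 of 12 such fits, with adjusted p up to 0.135. No other receptor was called between hairpins, and besides Il6ra only Csf1r was called upon 5-aza, while with the culture as a replicate block 2 of the 6 rose and 2 fell in Setdb1 hairpin cells. Over all genes tested, 12.4% were called between hairpins without 5-aza and 19.9% with it. Upon 5-aza, 18.8% were called in control cells and 28.9% in Setdb1 hairpin cells.

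Of 48 other chemokine and cytokine genes, 19 passed the filter and 14 had 0 reads in all hairpin libraries, among them Tnf, Il1b and Ifnb1, the textbook inducers of such signals. Upon 5-aza, 4 rose and 1 fell in control cells, and 7 rose and 2 fell in Setdb1 hairpin cells, where 18.8% and 28.9% of all genes tested were called. The second balance was 5 to 3 with median centring and 3 to 2 without Setdb1 hairpin replicate A. Il34, the second ligand of Csf1r, had the largest rise, from 1.78 ± 0.157 to 3.53 ± 0.339 RPM in control cells (0.99, SE 0.10, adjusted p 9.82e-05) and from 2.19 ± 0.140 to 5.40 ± 0.357 RPM under the Setdb1 hairpin (1.30, SE 0.10, adjusted p 3.24e-05). Ccl17, an attractant of T cells, had the largest fall (-1.11, SE 0.21, adjusted p 0.00450, and -0.87, SE 0.21, adjusted p 0.0108). Between hairpins, 1 rose and 1 fell without 5-aza, and 3 rose and 1 fell with it, against 12.4% and 19.9% of all genes. Cxcl14, a chemokine of epithelia and fibroblasts, was the gene lower in both settings (-0.78, SE 0.19, adjusted p 0.0182, and -1.17, SE 0.19, adjusted p 0.00136), and Tnfsf11, the osteoclast factor RANKL, rose in both (0.44, SE 0.09, adjusted p 0.00934 without 5-aza). The first call of Cxcl14 was lost in 3 of 12 fits that left out 1 library (adjusted p up to 0.0857).

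All 26 regulators of NF-kB, AP-1 and C/EBP found in the table passed the filter. Between hairpins without 5-aza, 0 rose and 2 fell (Fos and Zfp36), where 12.4% of all genes tested were called, and with 5-aza 4 rose and 0 fell, where 19.9% were called, led by Tnfaip3, a brake on NF-kB (0.72, SE 0.16, adjusted p 0.0103), a call lost without Setdb1 hairpin with 5-aza replicate 1 (adjusted p 0.0528). With median centring these balances were 0 to 4 and 1 to 1. Fos, a subunit of AP-1, was lower by -0.41 (SE 0.10, adjusted p 0.0257), and that call was lost in 4 of 12 fits (adjusted p up to 0.118). Upon 5-aza 2 rose and 2 fell in control cells, or 15.4% of the 26, against 18.8% of all genes tested. In Setdb1 hairpin cells 4 rose and 1 fell (10 and 3 with the culture as a replicate block). These were 19.2% of the 26 in the main fit, against 28.9% of all genes tested. There Ikbkg, the scaffold of the kinase that frees NF-kB, rose by 0.61 (SE 0.13, adjusted p 0.00530). The NF-kB subunit Rel fell in both (-0.32, SE 0.09, adjusted p 0.0329, and -0.46, SE 0.09, adjusted p 0.00425), and the first of these was lost in 5 of 12 fits (adjusted p up to 0.126). Nfkbie, an NF-kB inhibitor, had the largest rise in control cells (0.35, SE 0.11, adjusted p 0.0432), lost in 7 of 12 fits. Of 15 genes of the JAK-STAT pathway, limma called 0 between hairpins, with 2 and 3 at an unadjusted p under 0.05 without and with 5-aza. Upon 5-aza 3 rose and 0 fell in each arm, against 18.8% and 28.9% of all genes tested, with the largest rise in control cells in Pias3 (0.24, SE 0.08, adjusted p 0.0412), a call lost in 10 of 12 fits. These counts were 1 to 1 in control cells with median centring and 5 to 0 in Setdb1 hairpin cells with the culture as a replicate block.

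Markers of other cell types also moved. Of 6 epithelial markers, 2 were tested, the keratins Krt8 and Krt18, and both rose in all 4 comparisons. Krt8 passed the filter only through the libraries with Setdb1 hairpin and 5-aza (2.30 ± 0.509 RPM, SD, n = 3). Its rises into that group are therefore not independent of the filter. Krt8 had 1 read in each control hairpin library without 5-aza, at most 22 with Setdb1 hairpins, and 39 to 49 in the controls with 5-aza. The 6 epithelial markers, tested or not, summed to 2.74 to 3.27 RPM in the plain controls and 21.04 to 23.65 RPM with Setdb1 hairpin and 5-aza. Of 16 macrophage markers, 3 were tested. Upon 5-aza Itgam (1.66, SE 0.23, adjusted p 0.000621) and Csf1r rose in control cells, and Cd68 and Csf1r in Setdb1 hairpin cells, where 18.8% and 28.9% of all genes tested were called. The call of Cd68 (0.52, SE 0.16, adjusted p 0.0281) was lost in 3 of 12 fits that left out 1 library (adjusted p up to 0.116). It was also lost without the filter, with quantile normalization, with only the 2 groups in the fit and with replicates A and B alone. Itgam was also lower with the Setdb1 hairpin in treated cells (-1.40, SE 0.23, adjusted p 0.00162). It passed the filter only through the control hairpin libraries with 5-aza (1.24 ± 0.0798 RPM, SD, n = 3). Both calls of Itgam rest on that group and are not independent of the filter. Of 7 endothelial markers, 3 were tested, with medians upon 5-aza of -0.75 in control cells and -0.11 in Setdb1 hairpin cells. Only Emcn was called there, and it fell in both arms (-1.09, SE 0.17, adjusted p 0.00159, and -1.52, SE 0.17, adjusted p 0.000240). Of 13 fibroblast markers, 0 were called in control cells upon 5-aza (1 at an unadjusted p under 0.05), where 18.8% of all genes tested were called. In Setdb1 hairpin cells 30.8% of the 13 were called, near the 28.9% of all genes tested. Their median log2 fold change in Setdb1 hairpin cells was -0.45, against 0.06 over all genes tested. There Vim rose (0.20, SE 0.05, adjusted p 0.0152) and 3 fell, Col1a1 the most (-0.73, SE 0.23, adjusted p 0.0337), calls lost in 1 and 4 of 12 fits. With the culture as a replicate block, 1 rose and 7 fell in Setdb1 hairpin cells. Between hairpins without 5-aza limma called 0 of the 13, against 12.4% of all genes tested, with 1 at an unadjusted p under 0.05. Between hairpins with 5-aza, where 3 members were called lower, the 13 fibroblast markers had a median log2 fold change of -0.43, against 0.05 over all genes tested. Of them 1 was called (Thy1, lower, -0.46, SE 0.13, adjusted p 0.0277), against 19.9% of all genes tested. The call of Thy1 was lost in 4 of 12 fits that left out 1 library (adjusted p up to 0.120). The part of these shifts in the members' values was not tested.

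Outside the members, the genes whose profile over the 12 libraries was most alike, by the root mean square difference of standardised log2 levels, were Fabp5 for Cxcl12 (0.194), Ereg for Csf1 (0.172), D19Wsu162e for Ccl2 (0.219), Laptm4a for Ccl7 (0.262), Il3ra for Cxcl5 (0.282) and Car14 for Il6 (0.303).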

How the data were processed

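RNA was sequenced from 13 MEF libraries, and the authors deposited 1 value per gene interval and library as log2 RPM, the log2 of reads scaled to a common total. How the table was quantified, with or without introns or strand, is not given in the sources used here. The submitters' processing notes name CASAVA 1.4 and mm10. Above the floor value, which stood for 0.9 read, 100% of values came out as whole multiples of 1 read (tolerance 0.02 of a read). Reads were recovered from these steps, and 3 reads were taken as the limit of detection, for counting error only. The labels do not say that replicates were separate animals, so p-values measure the spread between these libraries, which may be technical.

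A linear model of log2 RPM over all 12 hairpin libraries, with 5 contrasts and two-sided tests, was fitted in limma 3.58.1 under R 4.3.3, with moderated variances that follow a trend on mean level. In Setdb1 hairpin cells, libraries of 1 label with and without 5-aza deviated together from their group means (correlations over genes of 0.472, 0.634 and 0.413), and a fit with the culture as a replicate block is given where it changed a call there. Errors are standard errors of the fit, or SD over 3 libraries. Exon lengths came from GENCODE and start windows from RefSeq. The members, the 9 gene lists (1 gene of which was not matched in the table) and the tests were chosen with earlier results of these data known. Genes outside the members are named when they had the largest called rise or fall of a list without overlap between groups. Likeness was computed for members called in any pairwise contrast. Genes named beyond these rules were chosen after their values were seen. Tests were checked on simulated data. Alternatives were other filters, scalings, fits and libraries, and voom on recovered reads. Figures used Python 3.11.15, numpy 2.4.6, pandas 2.3.3 and matplotlib 3.10.9. One result that the naming rule would give is not reported here.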

Additional observations from a re-analysis of the deposited data

Results flagged for a closer look

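In the treated library whose hairpin is not named, which entered no comparison, 6 of the 10 members were above every control hairpin library with 5-aza: Lif at 24.7 RPM, Ccl2 at 46.3 RPM, Ccl5 at 0.883 RPM, Cxcl5 at 5.69 RPM, Cxcl10 at 3.53 RPM and Cxcl12 at 309.2 RPM. The other 4 were below every one of those libraries, with Il6 at 0.981 RPM, Csf1 at 782.3 RPM, Ccl7 at 49.8 RPM and Cxcl1 at 1.52 RPM. In the same library the 16 macrophage markers summed to 194.7 RPM, against 14.8 to 16.9 RPM in those controls, the 21 interferon-stimulated genes to 351.4 RPM, against 92.0 to 125.8 RPM, and Ccl3 and Tnf, at 0 in all hairpin libraries, were at 0.883 and 0.442 RPM. Their part in the members' levels was not tested, and with 1 library the difference has no replicate check.

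The interaction term of limma was called for 2 marker genes, and neither call held under all settings. Itgam passed the filter only through control hairpin cells with 5-aza, and Krt8 only through Setdb1 hairpin cells with 5-aza. Their interactions are therefore not independent of the filter. Itgam, a macrophage integrin, had an interaction of -1.76 on the log2 scale (SE 0.32, adjusted p 0.0392), with mean levels of 0.399 and 1.24 RPM without and with 5-aza in control cells and 0.506 and 0.479 RPM in Setdb1 hairpin cells. Its call was lost in 11 of 12 fits that left out 1 library (adjusted p up to 0.125), without the filter (adjusted p 0.106), with quantile normalization (adjusted p 0.135) and with replicates A and B alone (adjusted p 0.707). Krt8, an epithelial keratin, had an interaction of -2.53 (SE 0.39, adjusted p 0.0139), which was 0.45 on the log2(RPM + 1) scale (adjusted p 0.634) and 0.09 with quantile normalization (adjusted p 0.966), and whose size is not fixed by the data because the control libraries without 5-aza held 1 read each.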

How the results depend on the processing

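The number of members called depended on the fit. Between hairpins without 5-aza it was 1, and 2 with only the 2 groups in the fit (0 to 2 with 1 library left out). Between hairpins with 5-aza it was 3, and 0 with replicates A and B only (0 to 4 with 1 library left out). Upon 5-aza in control cells it was 2, 1 with a filter of 5 RPM, under which 5 members were tested and Cxcl5 was not, 1 with replicates A and B only, and 4 with only the 2 groups in the fit (1 to 4 with 1 library left out). In Setdb1 hairpin cells it was 3, and 1 with replicates A and B only (2 to 3 with 1 library left out). For the interaction it was 0 in all fits. Over all genes, 1630 were called between hairpins without 5-aza, 2609 with it, 2471 and 3792 upon 5-aza in the arms in turn, and 51 for the interaction. With A and B only these were 470, 1403, 1532, 2306 and 8. With 1 library left out they were 721 to 1832, 1279 to 3428, 1260 to 2718, 2191 to 4193 and 29 to 43. The second was 1548 with only its 2 groups in the fit, and the interaction 19 with a filter of 5 RPM. The cause was not tested, beyond the smaller number of samples where libraries were left out.

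A fit with the replicate label or culture as a replicate block called 3 members (Ccl2, Lif and Cxcl5) between hairpins without 5-aza, 3 with 5-aza, 4 upon 5-aza in control cells (Cxcl5, Cxcl12, Ccl2 and Ccl7), 4 in Setdb1 hairpin cells (Cxcl5 added) and 0 for the interaction. Over all genes it called 3902 upon 5-aza in control cells and 169 for the interaction. Same-numbered libraries did not deviate together in every pair outside the Setdb1 groups: their deviations from the group means correlated at 0.586, 0.149 and 0.0999 between the control groups and -0.470 to 0.686 between hairpins, so that for those comparisons the block is given only here.

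Values that changed sign belonged to differences not called. Upon 5-aza in control cells, Il6 was -0.074 with quantile normalization and -0.016 with replicates A and B only, Lif -0.038 with A and B only (-0.13 to 0.22 with 1 library left out), and Cxcl1 -0.027 with quantile normalization (-0.018 to 0.24). In Setdb1 hairpin cells, Il6 was -0.20 to 0.079 with 1 library left out, and Ccl7 -0.045 after median centring, -0.034 after quantile normalization and -0.025 for A and B only (-0.088 to 0.13). Between hairpins without 5-aza, Cxcl12 was -0.21 to 0.0086 with 1 library left out. For the interaction, Il6 was -0.25 to 0.024 and Ccl2 -0.073 to 0.15 with 1 library left out, Ccl2 -0.0095 with A and B only, and Cxcl12 -0.0077 after median centring and -0.023 after quantile normalization (-0.084 to 0.14). The cause was not tested. Of the other single-gene values under alternatives, 738 kept their direction and side of the threshold, 34 lost a call and 19 gained one. The planned edgeR and DESeq2 tests on recovered reads were not run, since the deposited unit is log2, and voom was chosen after seeing the data. Depth limits Ccl5 and Cxcl10, with at most 17 and 43 reads in a hairpin library.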
